A study of Mus musculus with 12 samples.

Results

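The genes that license DNA replication origins and build the replication fork were examined in murine Lin-Sca+Kit+ bone marrow cells with and without BCR::ABL1. The set holds 45 genes chosen by name for their role, and each symbol was matched to its Ensembl identifier. All 45 were found among the 56748 genes of the count tables, and all 45 passed the filter on low counts that left 18438 genes for testing. The lowest raw count of any member in any library was 153 (Fen1).

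The cells came from SCLtTA/BCR-ABL double transgenic (DTG) mice, in which the SCL (Tal1) promoter drives a tetracycline-repressed transactivator in haemopoietic stem and progenitor cells and human BCR::ABL1 is transcribed once tetracycline (TET) is removed. Frozen CD45.2 bone marrow pooled from DTG donors was transplanted into CD45.1 B6.SJL recipients, aged 8 to 12 weeks and irradiated with 2 doses of 4.25 Gy given 3 h apart, and all recipients were kept on TET for 2 weeks. TET was then withdrawn for 2 weeks from the mice that gave the BCR::ABL1+ libraries (CML 2wk in the labels, n = 6) and kept in those that gave the BCR::ABL1- libraries (CTRL, n = 6), so both groups carry both transgenes and share the irradiation and the transplant. CD45.2+ Lin-Sca+Kit+ cells, the bone marrow fraction that contains the haemopoietic stem cells and early progenitors, were sorted for bulk RNA sequencing. The sex given in the labels is male for every CTRL library and female for every CML 2wk library. The methods give both sexes for the donors of the pooled marrow and for the recipients. Whose sex the labels give is not stated in the sources used here. By the labels, sex and BCR::ABL1 cannot be told apart. If the labels describe the sorted cells, this bears most directly on Pola1, the only member on the X chromosome. The labels number the libraries within a group and do not tie each to a mouse, and the p-values measure the spread between these libraries. Judged by library number, replicate 6 of either group stands outside the consecutive numbers of the other 5.

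Between 22804754 and 41832868 reads were counted on genes in the BCR::ABL1- libraries and between 16150817 and 25070105 in the BCR::ABL1+ libraries. The sorting markers Kit, Ly6a (Sca-1) and Ptprc (CD45) were read in every library, with Kit between 681 and 800 CPM (read counts scaled to the same library size) in BCR::ABL1- cells, against 323.1 to 521.7 CPM with BCR::ABL1. The 8 markers of the sorted fraction summed to 2703 to 3101 CPM without BCR::ABL1 and 1723 to 2213 CPM with it (1 higher, 6 lower), with Flt3 at 382.1 to 493 CPM against 191.7 to 359.4 CPM and Cd34 at 654.3 to 807 CPM against 461.5 to 625.1 CPM. Mitochondrial genes took 0.816% to 1.288% of counts in BCR::ABL1- and 2.258% to 2.973% in BCR::ABL1+ libraries. Over all genes the BCR::ABL1+ libraries varied more among themselves (biological coefficient of variation 32.4%, or 24.5% without replicate 2) than the BCR::ABL1- libraries (10.9%). That replicate stood apart, with 8 stromal markers summing to 5296 CPM, against a BCR::ABL1+ median of 99.14 CPM (lowest 70.53) and a BCR::ABL1- range of 108.4 to 139.3 CPM (4 of the 7 that were tested higher, none lower, Col3a1 and Cxcl12 at 0 in some libraries). The summed level of the mast cell or basophil markers was 78.19 to 158 CPM without BCR::ABL1 and 273.6 to 1743 CPM with it. Of these 6 markers, 4 were higher and none lower, and Tpsb2 was at 0 in some libraries. The BCR::ABL1+ median was 620.7 CPM, and the value of 1743 CPM was that of replicate 2. Neutrophil markers summed to 2261 to 4448 CPM without and 2511 to 6042 CPM with BCR::ABL1 (3 of 8 higher, 4 lower). The 5 megakaryocyte markers summed to 217.8 to 253.7 CPM without and 72.18 to 240.5 CPM with it. All 4 of them that were tested were lower, and Gp1bb and Ppbp were at 0 in some libraries. The highest megakaryocyte sum with BCR::ABL1, 240.5 CPM, was also that of replicate 2, against a BCR::ABL1+ median of 117.4 CPM. Monocyte or macrophage markers summed to 282.9 to 534.7 CPM without and 499.3 to 786.5 CPM with BCR::ABL1 (2 of 6 higher, none lower). The 6 T or NK cell markers summed to 72.53 to 94.37 CPM and 91.26 to 175.6 CPM. Of the 5 that were tested 2 were higher and none lower, and Cd3e, Cd3g, Cd3d and Trac were at 0 in some libraries. The part of these other cells in the levels below was not tested, and in bulk RNA fewer cycling cells and less RNA per cell cannot be told apart.

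Eukaryotic DNA replication starts in 2 steps that are kept apart in the cell cycle. In G1, the origin recognition complex (ORC) binds origins and, with Cdc6 and Cdt1, loads the ring-shaped Mcm helicase on DNA in an inactive form, a step called licensing that geminin (Gmnn) blocks by binding Cdt1. In S phase, Cdc45 and the GINS complex join the helicase and activate it, primase and polymerase alpha lay down primers, polymerases epsilon and delta extend the leading and the lagging strand on the sliding clamp PCNA, and RPA protects the single strands. Many of these genes are known targets of the E2F transcription factors, and haemopoietic stem cells, most of which rest outside the cycle, are known to express them less than dividing progenitors.

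To show what the members share in sequence, their promoters were searched for E2F-type sites. RefSeq promoter windows of 300 bases (250 before the transcription start and 50 from it onwards) were found for 37 of the 45 members, and Gins1, Gins2, Gins4, Gmnn, Mcm4, Pole, Prim2 and Rfc2 had no entry. The letters TTTCCCGC, TTTCGCGC, TTTGCCGC or TTTGGCGC, on either strand, were found in 14 of the 37 windows (37.8%), against 2.32% of all 27025 promoter windows and 2.92% of the 17492 of protein-coding genes. One site of each of the 14 genes is printed below, as 30 bases read 5′ to 3′ on the strand that carries it, with the match in capitals, in the order of the fold changes reported further on, from the highest to the lowest.
Orc1: aggagaaaactTTTCGCGCcactaaccgaa
Rfc3: gacagtagagtTTTCCCGCgagcgcgaaag
Orc3: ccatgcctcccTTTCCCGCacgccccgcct
Pole2: catgttcgcgaTTTGGCGCcaccgccgacg
Gins3: ttcaaactcgcTTTCCCGCgccgcactcgc
Mcm5: aggctggacgtTTTGGCGCgaaagttcttg
Pold3: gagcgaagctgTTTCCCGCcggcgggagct
Mcm3: acttcccaagtTTTCCCGCcacggaagttt
Cdc6: accccaggcgaTTTCCCGCtctccaccggc
Mcm7: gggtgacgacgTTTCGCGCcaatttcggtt
Pola1: gcgggagtgcaTTTGGCGCcctgtgatgac
Mcm6: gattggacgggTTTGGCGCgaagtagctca
Cdt1: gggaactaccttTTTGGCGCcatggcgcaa
Pold1: gctTTTCCCGCcacaagatacgccgccgtg

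In the GRCm38.p6 build these 30 bases lie at chr4:108579416-108579445 on the minus strand for Orc1, whose gene is on the plus strand, and at chr1:128359734-128359763 on the minus strand, that of the gene, for Mcm6. The other 12 lie at chr5:151651190-151651219 (plus strand, Rfc3), chr4:34614965-34614994 (minus, Orc3), chr12:69228162-69228191 (plus, Pole2), chr8:95633507-95633536 (minus, Gins3), chr8:75109349-75109378 (minus, Mcm5), chr7:100121467-100121496 (minus, Pold3), chr1:20820275-20820304 (plus, Mcm3), chr11:98908002-98908031 (minus, Cdc6), chr5:138171849-138171878 (minus, Mcm7), chrX:93632275-93632304 (plus, Pola1), chr8:122568035-122568064 (plus, Cdt1) and chr7:44548766-44548795 (plus, Pold1). Where a window held several matches, the one nearest the transcription start was printed. The printed match lay before the start in 7 genes (Orc1, Orc3, Gins3, Mcm5, Cdc6, Pola1 and Mcm6), farthest away in Mcm5 at position -149. In the other 7 it lay at or after the start, within the first transcribed bases, up to position 39 in Pold1, where 0 is the first transcribed base. Matches not printed in the list also lay before the start in Mcm7 (-165), Mcm5 (-153) and Rfc3 (-10). Of the 14 genes, 4 were higher in BCR::ABL1+ cells, 7 were lower and 3 did not pass the test. Windows were found for 17 members called higher and 12 called lower, and among all genes tested 30.6% were higher and 29% lower. Genes with these letters thus lay on both sides of the comparison, and whether their shares differ between the sides was not tested. The Mcm6 promoter held 3 matches, the most of any member, and the 250 bases before its start (chr1:128359706-128359955, minus strand) are shown in full because 2 of the matches overlap on opposite strands and appear as 1 run of capitals.
Mcm6: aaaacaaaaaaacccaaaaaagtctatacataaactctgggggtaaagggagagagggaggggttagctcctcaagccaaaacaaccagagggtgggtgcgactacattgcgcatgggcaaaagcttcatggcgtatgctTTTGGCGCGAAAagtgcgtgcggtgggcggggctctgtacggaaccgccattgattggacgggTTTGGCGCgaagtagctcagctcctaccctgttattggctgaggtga

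A CCAAT box, the letters CCAAT on either strand, was found in 22 of the 37 windows (59.5%, against 37.9% of all windows). The letters TTTGAA, the core of the cell cycle homology region bound at many mitotic genes, were found in 4 (10.8%, against 18.1%), and the E-box CACGTG in 5 (13.5%, against 7.24%). Each match describes letters in a window and not binding.

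Of the 45 members, 37 changed in BCR::ABL1+ cells in edgeR's quasi-likelihood test (adjusted p below 0.05 over all 18438 genes): 22 rose, 15 fell and 8 did not pass. Among all genes tested 59.5% passed (30.6% higher, 29% lower), and among the 9128 genes in the same CPM range as the members 73.5% did (29.6% higher, 43.9% lower). Read against that range, the share of members called was 82.2%. The libraries of the groups did not overlap for 26 members, 17 higher and 9 lower, where 37.6% of all genes (17% higher, 20.6% lower) and 54.6% of the genes in that CPM range did not overlap. The median log2 fold change (BCR::ABL1+ minus BCR::ABL1-, as in all that follows) was 0.18 over the members and 0.07 over all genes. Without BCR::ABL1+ replicate 2, 23 members rose and 15 fell (32.5% and 31.8% of all genes), and 32 did not overlap (45% of all genes). Without replicate 6 of both groups, 21 rose and 13 fell (28.5% and 27.2% of all genes), and 27 did not overlap (41.4% of all genes). By role, the calls were higher for all 6 ORC genes, geminin, 3 of 4 GINS genes, both primase genes and 3 of 5 clamp loader genes, and lower for Cdt1, 5 of 6 Mcm2 to Mcm7 genes, the catalytic subunits Pola1, Pold1 and Pole, and Lig1.

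**Figure D1:**
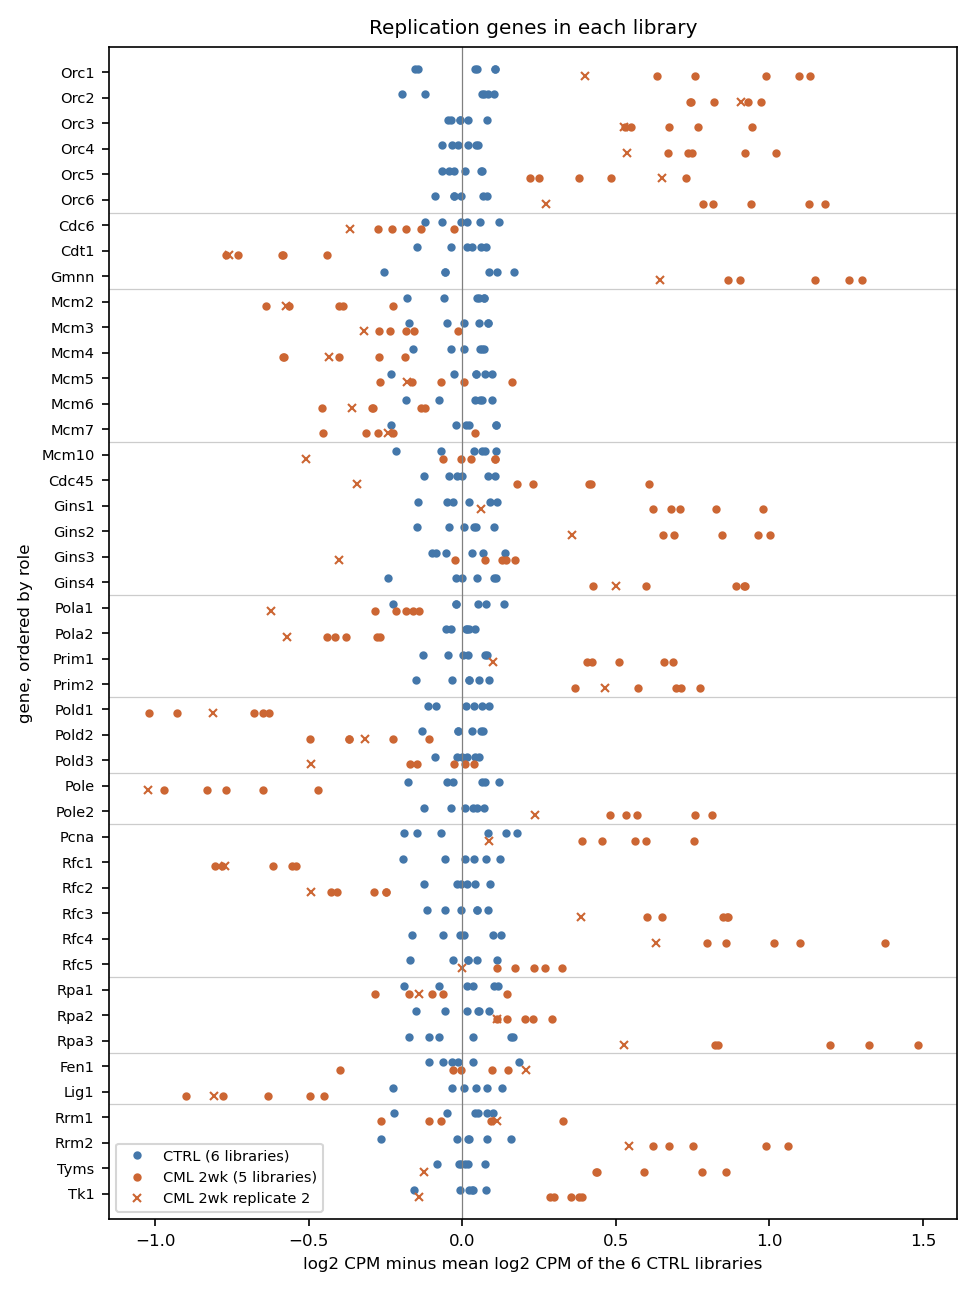
Level of each of the 45 genes in each of the 12 libraries, as log2 CPM minus the mean log2 CPM of the 6 CTRL libraries (x axis), with the genes in rows ordered by role. All 6 ORC genes lie wholly to the right of the CTRL libraries, Cdt1, Mcm2, Mcm4, Pold1, Pole, Rfc1 and Lig1 wholly to the left, and CML 2wk replicate 2 (cross) is the lowest of its group for 27 genes.

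One feature of the whole comparison runs through these results. Over the 17803 genes with a transcript model, the log2 fold change was lower for longer and more GC-rich transcripts (Spearman's rho across genes -0.36 with length and -0.28 with GC content, n = 17803 genes that share the same 12 libraries), and over the 45 members the values were -0.547 and -0.541. Of the 22 members with a principal transcript below 2559 bases, 16 rose and 3 fell, against 39.3% and 15.7% of all genes below that length. Of the 23 members at or above it, 6 rose and 12 fell, against 22% and 44.1% of all such genes. With smooth trends on length and GC content removed within each library, an alternative chosen after seeing the data, 17 members rose and 9 fell, where 49.6% of all genes passed (25.9% higher, 23.7% lower), and 13 members did not overlap, against 29.8% of all genes. Of the roles just named, 5 of 6 ORC genes and 2 of 6 Mcm2 to Mcm7 genes kept their calls. That alternative is named with each gene below whose call it ends. Whether the trends come from the libraries or from the cells was not tested.

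**Figure D2:**
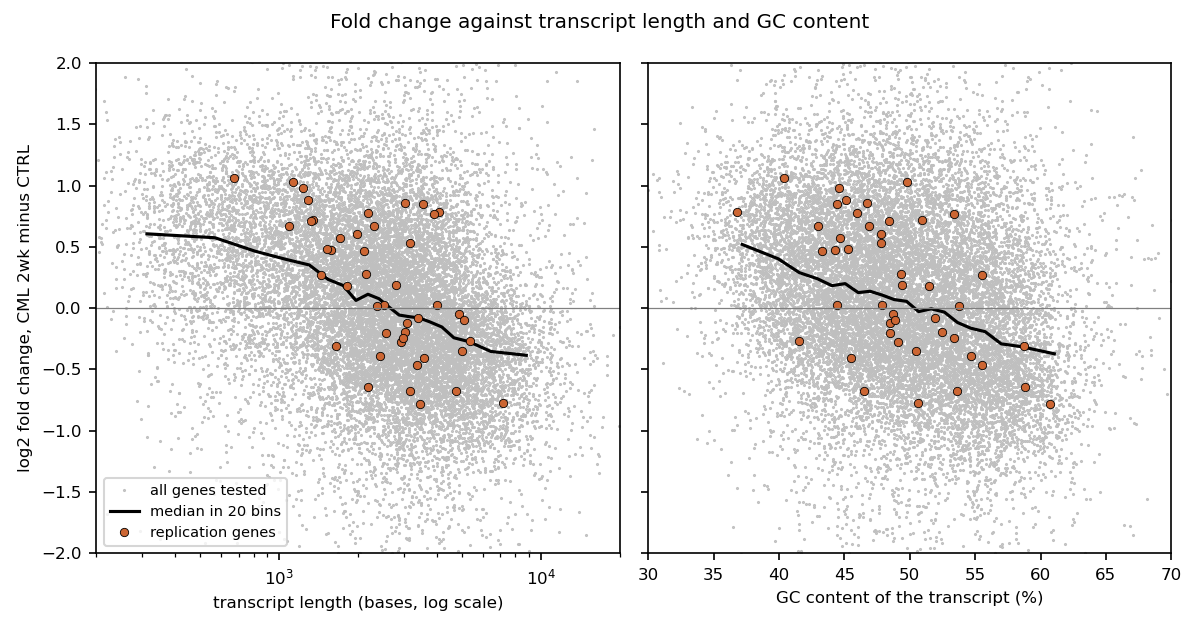
Log2 fold change (y axis, cut at -2 and 2) against the length in bases (left, log scale) and the GC content in percent (right) of the principal transcript, for all genes tested (grey), their median in 20 bins (black line) and the 45 replication genes (orange). The line falls from left to right in both panels, and the replication genes spread around it.

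All 6 subunits of ORC, the complex that marks origins, were higher in BCR::ABL1+ cells, and no library of one group reached into the other for any of them. Orc1, the largest subunit and one whose level is known to vary over the cell cycle, was at 18.87 CPM in the lowest, 21.68 in the median and 22.6 in the highest BCR::ABL1- library, and at 27.77, 38.64 and 46.13 CPM in the BCR::ABL1+ libraries. Its lowest BCR::ABL1+ value, in replicate 2, was still above every BCR::ABL1- library. The log2 fold change was 0.85 ± 0.117 (SE; edgeR, adjusted p = 2e-05), or 1.81-fold. Orc2, a core subunit that is known to stay more even over the cycle, rose from 59.79, 71.87 and 73.68 CPM (lowest, median and highest) to 114.8, 125 and 134.6 CPM, by 0.85 ± 0.0678 on the log2 scale (edgeR, adjusted p = 1.54e-07). Orc2 was one of the 2 members that varied less among the BCR::ABL1+ than among the BCR::ABL1- libraries, the other being Rpa2. Orc6, the smallest subunit, went from 44.09, 46.39 and 49.59 CPM to 56.69, 86.32 and 106.5 CPM. Its log2 fold change was 0.88 ± 0.118 (edgeR, adjusted p = 1.59e-05), and its BCR::ABL1+ values spread widely. Orc3, Orc4 and Orc5, the remaining core subunits, rose by 0.67, 0.78 and 0.47 on the log2 scale. Orc5 was the only ORC gene that lost its call with the length and GC trends removed (0.14, edgeR, adjusted p = 0.232), while Orc6, Orc3 and Orc4 kept theirs at smaller log2 fold changes of 0.36, 0.36 and 0.50. The Orc2 exons share 29.8% of their bases with Nif3l1, and the deposited tables do not say whether reads were counted by strand.

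The factors that load the helicase and their inhibitor moved in opposite directions. Cdt1, the loader that geminin binds, was at 103.4, 116.6 and 121 CPM (lowest, median and highest) in BCR::ABL1- and at 67.26, 72.63 and 84.39 CPM in BCR::ABL1+ libraries. Gmnn was at 34.53, 41.74 and 46.38 CPM in BCR::ABL1- and at 64.52, 84.4 and 101.8 CPM in BCR::ABL1+ libraries. The groups did not overlap for either gene, with Cdt1 lower and Gmnn higher in all 6 BCR::ABL1+ libraries. Cdt1 fell by 0.64 on the log2 scale (SE 0.0663; edgeR, adjusted p = 1.42e-06), and Gmnn rose by 1.03 ± 0.11 (adjusted p = 1.93e-06), 2.05-fold, the second largest rise of the set. Both calls held with the length and GC trends removed, at the smaller values of -0.30 and 0.65. Cdc6, the ATPase that recruits Cdt1 and the helicase to ORC, fell slightly from 65.06, 71.09 and 76.99 CPM to 54.89, 61.38 and 69.57 CPM. Its groups overlapped, the log2 fold change was -0.20 ± 0.0641 (edgeR, adjusted p = 0.0144), and the call was lost with upper-quartile scaling (adjusted p = 0.106).

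Since the ratio of 2 genes within a library does not depend on the scaling between libraries, 4 ratios of functional partners were compared by a two-sided exact permutation test of the group labels, with Benjamini-Hochberg adjustment over the 4. The log2 ratio of Cdt1 to Gmnn averaged 1.47 ± 0.103 (SD, n = 6) without BCR::ABL1 and -0.19 ± 0.275 (n = 6) with it, a difference of -1.67 (exact permutation p = 0.00216, the smallest that 6 against 6 allow, adjusted p = 0.00433). The lowest BCR::ABL1- ratio was 1.32 and the highest BCR::ABL1+ ratio 0.13, so every library stood on the side of its group. As Cdt1 was lower and Gmnn higher in every BCR::ABL1+ library, this separation and its p followed from the values above and add no evidence. The difference was -0.95 with the length and GC trends removed. The ratio of Orc1 to Orc2 was -1.70 ± 0.0486 and -1.72 ± 0.332 (n = 6 each), a difference of -0.02 (exact permutation, adjusted p = 0.885), with the BCR::ABL1+ libraries from -2.21 to -1.39 on both sides of the BCR::ABL1- range. That difference changed sign without BCR::ABL1+ replicate 2 (0.08) or replicate 6 (0.05).

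**Figure D3:**
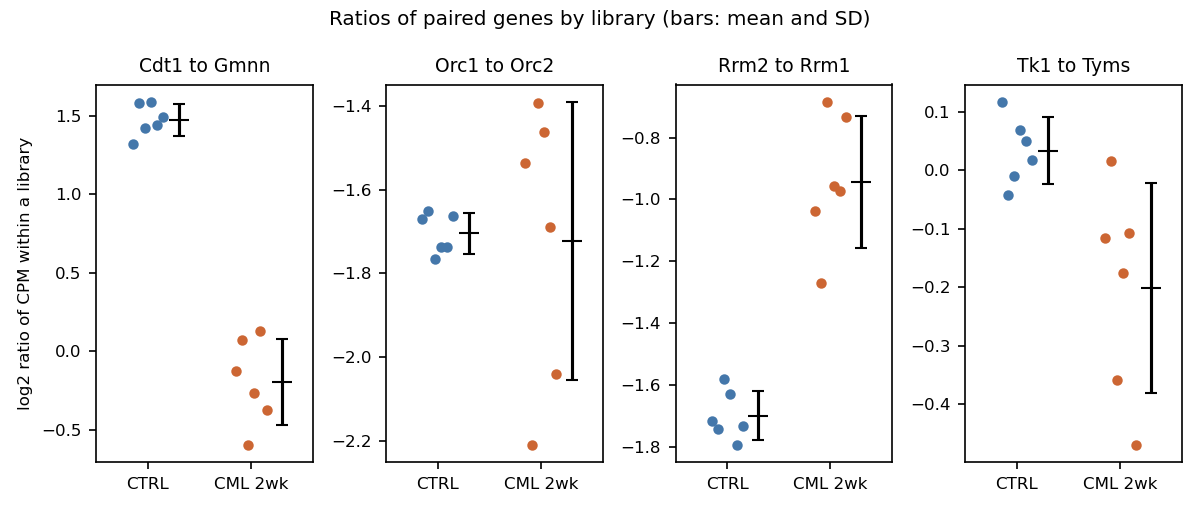
Log2 ratio of the CPM of 2 genes within each library (y axis, one scale per panel) in the 6 CTRL and 6 CML 2wk libraries, with the mean and SD of each group. The Cdt1 to Gmnn ratio is from 1.32 to 1.59 in CTRL and from -0.60 to 0.13 in CML 2wk, while the Orc1 to Orc2 ratios of CML 2wk spread to both sides of CTRL.

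The Mcm2 to Mcm7 genes encode the 6 subunits of the ring that becomes the replicative helicase. Of the 6, 5 fell in BCR::ABL1+ cells, none rose, and Mcm5 did not pass. In the CPM range of the members 43.9% of genes were lower and 29.6% higher. All 6 transcripts are longer than 2559 bases, where 44.1% of all genes were lower and 22% higher. The falls were small, and the groups did not overlap only for Mcm2 and Mcm4. Mcm2 was at 286.3, 336.2 and 340.9 CPM (lowest, median and highest) in BCR::ABL1- and at 208.4, 232.5 and 277.3 CPM in BCR::ABL1+ libraries, a log2 fold change of -0.46 ± 0.0764 (edgeR, adjusted p = 0.000114). Mcm4 went from 249.9, 285.7 and 292.9 CPM to 186.4, 209.1 and 245.2 CPM, a log2 fold change of -0.40 ± 0.0755 (edgeR, adjusted p = 0.00033). Mcm6, whose promoter is printed above, was at 555.5, 652.3 and 673.5 CPM in BCR::ABL1- and 458.9, 514.2 and 580 CPM in BCR::ABL1+ libraries. Its highest BCR::ABL1+ library lay above the lowest BCR::ABL1- library, replicate 2 of that group, and the log2 fold change was -0.27 ± 0.0732 (edgeR, adjusted p = 0.00481). Mcm3 and Mcm7 had log2 fold changes of -0.20 and -0.24 (edgeR, adjusted p = 0.0195 and 0.0202), both lost with upper-quartile scaling and without replicate 6 of both groups. Mcm5 had -0.08, with a 95% interval from -0.24 to 0.07. With the length and GC trends removed, Mcm4 (-0.40) and Mcm6 (-0.23) kept their calls, while Mcm2 (-0.06, edgeR, adjusted p = 0.546), Mcm3 (0.01, adjusted p = 0.952) and Mcm7 (-0.01, adjusted p = 0.952) did not.

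The genes that turn the loaded ring into an active helicase did not follow it down. Of the 6 helicase activation genes, Gins1, Gins2 and Gins4 rose, none fell, and Gins3, Cdc45 and Mcm10 did not pass. Gins2 was at 21.77, 24.48 and 25.91 CPM (lowest, median and highest) in BCR::ABL1- and at 30.89, 41.17 and 48.39 CPM in BCR::ABL1+ libraries, with no overlap and a log2 fold change of 0.77 ± 0.0987 (edgeR, adjusted p = 1.13e-05). With the length and GC trends removed its log2 fold change was 1.15, the largest of the set in that setting. Since 67.3% of the Gins2 exon bases are shared with Gse1, its level and its fold changes with and without the trends are uncertain. Gins4 went from 31.48, 37.86 and 40.23 CPM to 50.07, 62.82 and 70.63 CPM, again without overlap, by 0.72 ± 0.0985 (edgeR, adjusted p = 2.02e-05), or 0.46 with the trends removed. Gins1 was at 23.83, 26.27 and 28.51 CPM against 27.47, 42.68 and 52 CPM. Only BCR::ABL1+ replicate 2 reached the BCR::ABL1- range of Gins1, the log2 fold change was 0.67 ± 0.118 (edgeR, adjusted p = 0.000203), and the call was lost with the length and GC trends removed (0.15, adjusted p = 0.142). The fourth subunit of the same complex, Gins3, was at 21.28, 22.64 and 25.09 CPM in BCR::ABL1- and 17.24, 24.46 and 25.66 CPM in BCR::ABL1+ libraries. Those ranges overlapped almost wholly, and the 95% interval of the log2 fold change was -0.16 to 0.21. Within a library, the log2 ratio of Gins3 to Gins4 ran from -0.81 to -0.55 without BCR::ABL1 and from -1.65 to -1.003 with it, a description with no test.

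Cdc45, the partner of GINS, was at 51.46, 55.79 and 60.56 CPM in BCR::ABL1- and 44.28, 70.33 and 85.74 CPM in BCR::ABL1+ libraries. BCR::ABL1+ replicate 2 was below the BCR::ABL1- range, and the other libraries of its group were all above it. Its log2 fold change was 0.28 ± 0.119 (edgeR, adjusted p = 0.0573) with all libraries and 0.37 (edgeR, adjusted p = 0.000616) without that replicate. Mcm10, a scaffold that joins helicase and polymerase alpha, ranged from 76.64 to 95.95 CPM without BCR::ABL1 and from 62.42 to 95.82 CPM with it, with a 95% interval of the log2 fold change from -0.23 to 0.14.

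Polymerase alpha-primase starts each strand with an RNA primer made by the primase subunits and a short DNA stretch made by the polymerase subunits. The primase and the polymerase subunits moved apart. Prim1, the catalytic primase, was at 73.51, 80.98 and 85.05 CPM (lowest, median and highest) in BCR::ABL1- and at 86.08, 111.1 and 129.3 CPM in BCR::ABL1+ libraries, and Prim2, its large subunit, went from 53.48, 60.3 and 63.05 CPM to 76.66, 92.37 and 101.7 CPM. Neither overlapped, although the lowest BCR::ABL1+ library of Prim1, replicate 2, was only just above the BCR::ABL1- range. The log2 fold changes were 0.47 ± 0.0862 for Prim1 (edgeR, adjusted p = 0.000265) and 0.60 ± 0.0729 for Prim2 (adjusted p = 6.25e-06). Pola1, the catalytic polymerase subunit, was at 222.5, 263.2 and 286.2 CPM against 168.9, 226.5 and 236.2 CPM, and Pola2, its accessory subunit, at 105.3, 110.3 and 112.5 CPM against 73.5, 83.01 and 90.66 CPM. Both were lower in BCR::ABL1+ cells, Pola2 without overlap, with a log2 fold change of -0.39 ± 0.057 (edgeR, adjusted p = 3.79e-05), and Pola1 with overlap, with -0.26 ± 0.0848 (adjusted p = 0.0148). Prim1 lost its call with the length and GC trends removed (0.04, edgeR, adjusted p = 0.646), the other 3 kept theirs (Pola2 at -0.17), and Pola1 lost its call with upper-quartile scaling (adjusted p = 0.0659).

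The polymerases that copy the bulk of the genome showed the largest falls of the set, in their catalytic subunits. Pold1, the catalytic subunit of polymerase delta, was at 168.1, 185.1 and 192.9 CPM in BCR::ABL1- and at 89.62, 108.5 and 117.4 CPM in BCR::ABL1+ libraries. Pole, the catalytic subunit of polymerase epsilon, went from 208.2, 237.9 and 255.2 CPM to 115.6, 135 and 169.9 CPM. The highest BCR::ABL1+ library was below the lowest BCR::ABL1- library for both genes. Both log2 fold changes were -0.78 (Pold1 SE 0.0739, edgeR, adjusted p = 6.39e-07; Pole SE 0.0902, adjusted p = 4.25e-06). These are also extreme transcripts, Pold1 with the highest GC content of the 45 (60.7%) and Pole with the greatest length (7163 bases). With the trends removed Pole remained lower (-0.29, edgeR, adjusted p = 0.0216) and Pold1 did not pass (-0.18, adjusted p = 0.113). Pold2, the second delta subunit, fell by 0.31 on the log2 scale, a call that removing the trends also ended, and Pold3 did not pass (-0.12, 95% interval -0.28 to 0.03). Pole2, the second epsilon subunit, rose, from 32, 35.43 and 36.65 CPM to 41.12, 51.17 and 61.44 CPM, without overlap and with a log2 fold change of 0.58 ± 0.0869 (edgeR, adjusted p = 4.96e-05), kept at 0.20 with the trends removed. The log2 ratio of Pole to Pole2 was 2.63 to 2.85 in BCR::ABL1- and 1.02 to 1.75 in BCR::ABL1+ libraries, a difference of means of -1.35 that became -0.49 with the trends removed.

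PCNA, the sliding clamp, is loaded on DNA by a clamp loader of 5 subunits, Rfc1 to Rfc5. Pcna was at 182.8, 210.1 and 236.4 CPM (lowest, median and highest) in BCR::ABL1- and at 221.4, 297 and 352 CPM in BCR::ABL1+ libraries. All BCR::ABL1+ libraries but replicate 2 were above the BCR::ABL1- range, and the log2 fold change was 0.48 ± 0.102 (edgeR, adjusted p = 0.00096), not called with the trends removed (0.07, adjusted p = 0.481). The annotation used here names 2 Pcna pseudogenes, and how reads shared with them were counted is not given in the sources used here. The loader subunits split. Rfc4 had the largest rise among them, from 37.35, 41.8 and 45.69 CPM to 64.86, 80.24 and 108.7 CPM, without overlap, by 0.98 ± 0.106 on the log2 scale (edgeR, adjusted p = 2.14e-06). Rfc3 rose likewise from 37.35, 41.08 and 42.95 CPM to 53.01, 68.3 and 73.9 CPM, by 0.71 ± 0.0817 (edgeR, adjusted p = 3.86e-06), and Rfc5 slightly, by 0.19 ± 0.0651 (adjusted p = 0.0226), a call lost without the filter on low counts (adjusted p = 0.245) and on leaving out BCR::ABL1- replicate 2 (0.15) or 4 (0.17) or BCR::ABL1+ replicate 1 (0.17) or 6 (0.15). With the trends removed, Rfc4 and Rfc3 kept their calls at smaller log2 fold changes of 0.42 and 0.35. Rfc1, the large subunit, moved the other way, from 195.4, 227.1 and 243.4 CPM to 127.7, 138.1 and 153.4 CPM. Its groups were far apart, the log2 fold change was -0.68 ± 0.0702 (edgeR, adjusted p = 1.46e-06), and -0.49 remained with the trends removed. Rfc2 fell by 0.35 on the log2 scale, which became 0.02 (edgeR, adjusted p = 0.852) with the trends removed. The log2 ratio of Rfc1 to Rfc4 within a library ran from 2.33 to 2.56 without BCR::ABL1 and from 0.26 to 1.07 with it, a difference of means of -1.64 that became -0.91 with the trends removed.

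RPA coats single-stranded DNA as a complex of 3 subunits. Rpa3, the smallest, had the largest rise of the whole set, from 23.21, 25.8 and 29.4 CPM to 37.74, 53.41 and 73.46 CPM, without overlap, at 1.06 ± 0.141 on the log2 scale (edgeR, adjusted p = 1.47e-05), and it also varied most among the BCR::ABL1+ libraries (SD of log2 CPM 0.363). It is the shortest transcript of the 45 (670 bases), and with the length and GC trends removed the log2 fold change was 0.12 (edgeR, adjusted p = 0.275). Rpa2 rose by 0.18 ± 0.0561 (edgeR, adjusted p = 0.0119), from 80.25 to 94.74 CPM in BCR::ABL1- to 96.36 to 109.1 CPM in BCR::ABL1+ libraries, also not called with the trends removed (adjusted p = 0.0616) or without the filter on low counts (adjusted p = 0.208). Rpa1, the large subunit, was at 181.4 to 224.3 CPM and 169.9 to 228.9 CPM. Its log2 fold change was -0.10 (95% interval -0.25 to 0.05), and 0.21 (edgeR, adjusted p = 0.0272) with the trends removed, so its direction depends on that step.

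Of the 2 genes that finish the lagging strand, Lig1, the ligase that seals Okazaki fragments, was at 200.9, 238.8 and 256.7 CPM in BCR::ABL1- and at 125.8, 144.1 and 171.7 CPM in BCR::ABL1+ libraries. The groups did not overlap, the log2 fold change was -0.67 ± 0.0855 (edgeR, adjusted p = 9.77e-06), and -0.40 remained with the trends removed. Fen1, the nuclease that trims the flaps, was at only 11.47 to 14.06 and 9.373 to 14.29 CPM and did not pass (0.01, 95% interval -0.20 to 0.23). Since 84.2% of the Fen1 exon bases are shared with Tmem258 and Gm10143, its level and its comparison are uncertain.

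Among the genes that supply deoxynucleotides, Rrm2, the small subunit of ribonucleotide reductase that is known to be made in S phase, was at 118.3, 144.1 and 158.6 CPM (lowest, median and highest) in BCR::ABL1- and at 207, 233 and 296.4 CPM in BCR::ABL1+ libraries. It rose without overlap by 0.78 ± 0.096 on the log2 scale (edgeR, adjusted p = 7.36e-06), while Rrm1, the large subunit, was at 395.5, 476.7 and 495 CPM against 384.3, 466.4 and 579 CPM, with a 95% interval from -0.16 to 0.20. The log2 ratio of Rrm2 to Rrm1 averaged -1.70 ± 0.0789 without BCR::ABL1 and -0.94 ± 0.213 with it (n = 6 each), a difference of 0.76 (exact permutation, adjusted p = 0.00433) with no overlap. Tyms, which makes thymidylate de novo, went from 87.03, 92.25 and 97.16 CPM to 84.58, 131.8 and 167.2 CPM. BCR::ABL1+ replicate 2 lay below every BCR::ABL1- library for Tyms and the other 5 lay above, and the log2 fold change was 0.53 ± 0.123 (edgeR, adjusted p = 0.00194). Tk1, which salvages thymidine, rose by 0.27 ± 0.0823 (edgeR, adjusted p = 0.0111), from 84.49, 96.18 and 99.57 CPM to 85.57, 118.3 and 123.6 CPM, with replicate 2 again within the BCR::ABL1- range. Both held with the trends removed, and Tk1 lost its call without the filter on low counts (edgeR, adjusted p = 0.0882). The log2 ratio of Tk1 to Tyms was 0.03 ± 0.0571 and -0.20 ± 0.18 (n = 6 each), a difference of -0.24 (exact permutation p = 0.00649, adjusted p = 0.00866), with 1 BCR::ABL1+ library inside the BCR::ABL1- range.

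**Figure D4:**
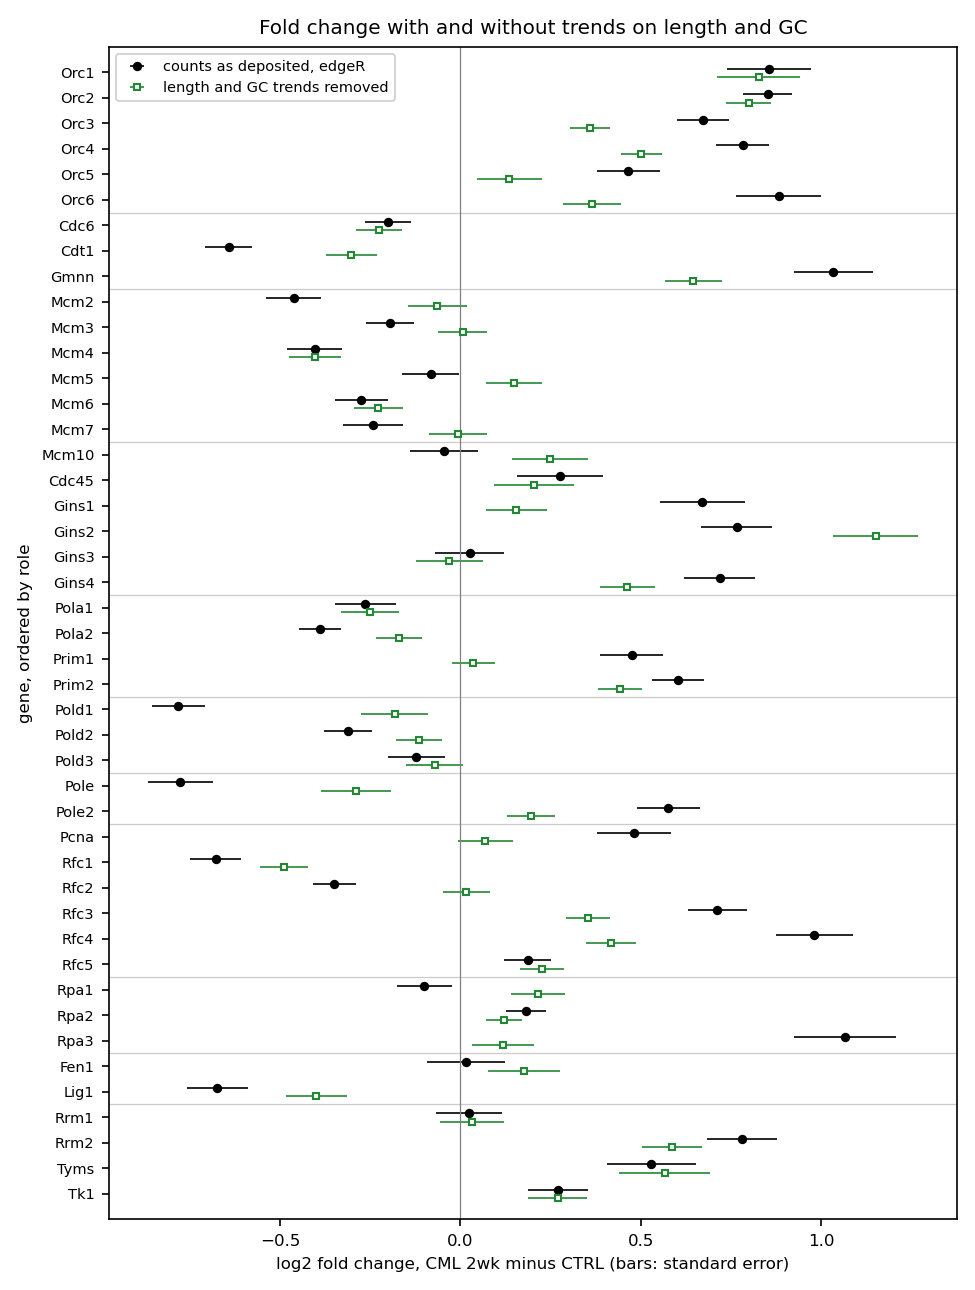
Log2 fold change of each gene (x axis, CML 2wk minus CTRL, bars are the standard error) from edgeR on the counts as deposited (black) and with trends on transcript length and GC content removed (green squares), genes ordered by role. Orc1, Orc2, Mcm4, Pola1, Tyms and Tk1 hardly move, Rpa3 goes from 1.06 to 0.12 and Pold1 from -0.78 to -0.18.

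Levels can be set side by side between genes only per length, and were divided by the length of the principal transcript. In BCR::ABL1- cells Mcm6 was the highest of the 45, at 217.1 ± 15.6 CPM per kb (SD, n = 6), and Fen1 the lowest, at 5.22 ± 0.383 CPM per kb, with the limit given above. The Mcm2 to Mcm7 subunits lay between 77.9 and 217.1 CPM per kb and the ORC subunits between 6.99 (Orc1) and 45.4 (Orc3). In BCR::ABL1+ cells Pcna was the highest, at 192.9 ± 29.1 CPM per kb, and Mcm6 followed at 179.4 ± 16.3 CPM per kb, a gap smaller than the SD of Pcna. Gmnn went from 36.8 to 75.3 CPM per kb and Cdt1 from 52.4 to 33.6, so that the order of the pair was exchanged. Rrm2 went from 65 to 111.7 CPM per kb, next to Rrm1 at 115.8 and 117.7.

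**Figure D5:**
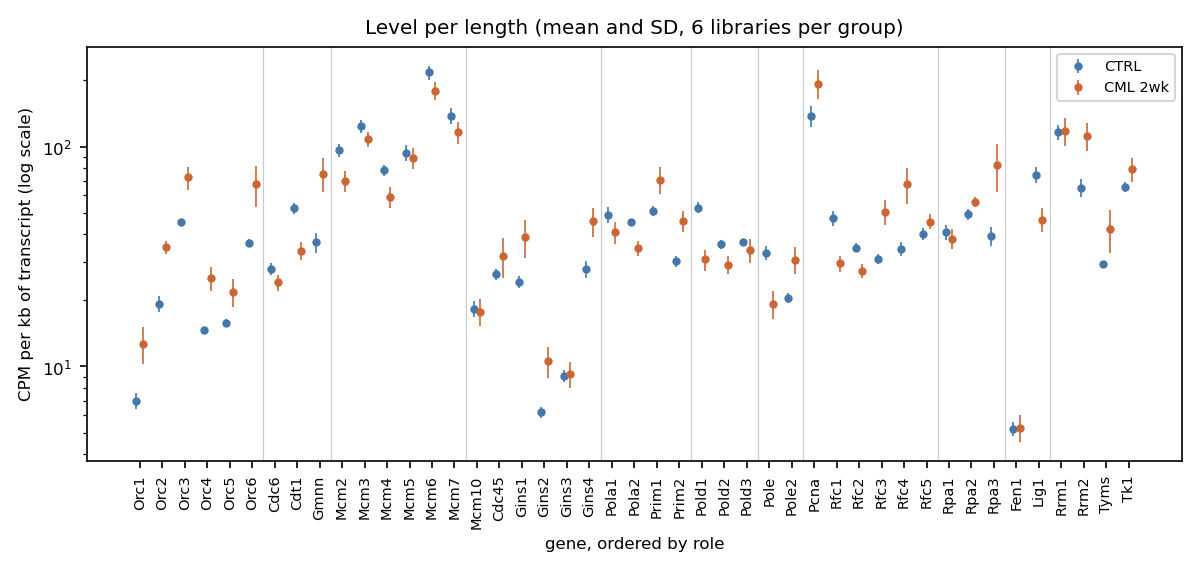
Level of each gene in CPM per kb of its principal transcript (y axis, log scale), as the mean and SD of 6 CTRL and 6 CML 2wk libraries, genes ordered by role. Mcm6, Pcna, Mcm7 and Rrm1 are near the top in both groups, and Cdt1 and Gmnn exchange places.

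The SD of log2 CPM was larger in BCR::ABL1+ than in BCR::ABL1- cells for 43 of the 45 members, where 91.6% of all genes had a larger SD in BCR::ABL1+ cells. The median SD over the members was 0.193 against 0.0952, below the medians of all genes (0.302 and 0.144). All genes tested include some at lower CPM than any member. Medians over the CPM range of the members are not given here, so the lower SD is not a result about the members. BCR::ABL1+ replicate 2 was the lowest of its group for 27 members, against 27.4% of all genes, and BCR::ABL1- replicate 2 the lowest of its group for 37 members, against 27.3% of all genes.

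A further 45 genes of forks and origins were read beside the members, and 75.6% were called, against 59.5% of all genes. In the CPM range of the members, 73.5% of genes were called (29.6% higher, 43.9% lower). Of the further 45 genes, 15 rose, 19 fell and 11 did not pass, with a median log2 fold change of 0.01. The largest rises were those of Ccne2 (1.16) and Ccne1 (0.89), the E-type cyclins that drive entry into S phase, the histone chaperone Asf1a (0.85), the dUTPase Dut (0.73) and the fork protection gene Tipin (0.71). Ccne2 was at 46.04, 50.46 and 62.94 CPM (lowest, median and highest) in BCR::ABL1- and 74.79, 118.9 and 150.7 CPM in BCR::ABL1+ libraries, without overlap (edgeR, adjusted p = 4.22e-06). The largest falls were those of Ctc1 (-0.96), of the CST complex at telomeres, the fork repair scaffold Tonsl (-0.96), Uhrf1 (-0.72), which maintains DNA methylation after replication, and Timeless (-0.68) and Clspn (-0.65) of the fork protection complex. Tipin and Timeless, which bind each other, thus differed in direction, and Timeless (-0.16, edgeR, adjusted p = 0.118) lost its call with the trends removed. Of 26 mitotic genes, 5 rose, 15 fell and 6 did not pass, with a median of -0.48. The share called was 76.9%, against 59.5% of all genes (30.6% higher, 29% lower). With the trends removed, 3 mitotic genes rose and 19 fell, where 25.9% of all genes were higher and 23.7% lower. Mki67, the proliferation marker, was at 1436, 1595 and 1765 CPM in BCR::ABL1- and at 484.7, 615.4 and 718 CPM in BCR::ABL1+ libraries, a log2 fold change of -1.38 ± 0.0914 (edgeR, adjusted p = 4.27e-08) and -0.999 with the trends removed.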

How the data were processed

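Bulk RNA-seq of 12 libraries (6 CTRL, 6 CML 2wk, grouped by their labels) was analysed. The authors deposited raw read counts per Ensembl gene, with no normalization. The methods name FastQC, Trim Galore!, HISAT2 and featureCounts with a human build, whereas the submitters' processing notes name FastQC 0.11.9, fastp 0.23.2, STAR 2.7.10a, featureCounts 2.0.1, DESeq2 1.36.0 and GRCm39, and the use of strand and of multiply mapped reads is not given in the sources used here. Of 56748 identifiers, 52073 matched a symbol, and 0 entries named no gene. No 2 libraries were alike within sampling noise (lowest chi-square per degree of freedom between replicates 4.072).

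The 45 members and all gene lists were chosen with earlier results of these data known. Counts were tested with edgeR 4.0.16 (TMM factors, filterByExpr, quasi-likelihood test, Benjamini-Hochberg over 18438 genes, threshold 0.05) in R 4.3.3, and CPM values use the same factors. Log2 CPM used a prior count of 2, and 95% intervals are 1.96 SE. Ratios were tested by exact permutation in Python 3.11.15 with numpy 2.4.6. Transcript length and GC content come from the principal transcript of GENCODE M21 (GRCm38), a build other than that of the counts. The trends were natural splines (5 degrees of freedom each) fitted per library to genes with a mean log2 CPM above 1 and used as offsets. Promoters are RefSeq sequences of GRCm38.p6. In a simulation on 18438 genes, 200 were given a change. There edgeR called, with the true sign, 55 of 100 genes given a log2 change of 1 and 35 of 100 given 0.5. It also called 5 of 18238 that had none. In the data 59.5% of genes were called, a share on which the adjustment depends, so these rates do not measure the sensitivity of this comparison. The members with the largest changes in each role, and those whose direction differed from the rest of their role, are given in full. Of the further fork and origin genes the 5 largest changes each way are named, and of the mitotic genes only Mki67. The alternatives were DESeq2 1.42.0 and its size factors, upper-quartile factors, no filter, a prior count of 0.5, the replicate block and leaving out libraries. Same-numbered libraries did not deviate together (correlations of -0.125 to 0.0679), and the main test did not pair them. These correlations cannot show whether same-numbered libraries were handled together, since other differences between libraries can hide a shared one. The symbol Chtf8 matched 2 identifiers, and the first was used. 2 lists of marker genes are not reported here.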

Additional observations from a re-analysis of the deposited data

Results flagged for a closer look

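Among the 90 groups of 6 values examined (45 genes in 2 groups), 3 held a library far from the other 5, where chance would give about 4.5. All 3 were BCR::ABL1+ replicate 2 as the lowest of its group. Mcm10 was at 62.42 CPM there, and the next library was at 85.09 CPM. Pola1 was at 168.9 CPM, with the next at 213.4 CPM. Tk1 was at 85.57 CPM, with the next at 115.1 CPM. This is the replicate with the stromal markers at 5296 CPM. It also had the highest mast cell or basophil (1743 CPM) and megakaryocyte (240.5 CPM) sums of its group. Whether these markers bear on the 3 values was not tested.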

How the results depend on the processing

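Of the 37 calls, 21 (14 higher, 7 lower) held in all 20 alternatives, 19 of them planned. The same share over all called genes is not given here, so this count is not set against that of other genes. Removing the length and GC trends, chosen after seeing the data, left 9 members lower and 13 not overlapping. In that setting 3 mitotic genes were higher and 19 lower. It also turned Mcm3 (0.00565), Mcm5 (0.147), Mcm10 (0.248), Rfc2 (0.0164), Rpa1 (0.214) and Gins3 (-0.031). The step ended 12 calls, and the cause was not tested. Leaving out 1 library gave 21 to 23 members higher, 15 lower and 26 to 32 not overlapping. Of all genes, 5172 to 6070 were then higher and 5013 to 5937 lower. The Orc1 to Orc2 ratio difference, not called in any setting, ran from -0.0841 to 0.0796 and was 0.0392 without BCR::ABL1+ replicates 2 and 4. Under the replicate block, 23 members rose and 15 fell, and the ratio differences (-1.67, 0.757 and -0.235) had sign-flip adjusted p of 0.0625, 0.0625 and 0.0833, where 6 pairs allow no raw p below 0.0312. No library correlated best with its own number. Values near 0 changed sign: Mcm10 with upper-quartile factors (0.0314) and without replicates 2 and 4 (0.00446), Gins3 without the filter (-0.0446) and without replicate 6 of both groups (-0.0106), Fen1 without the filter (-0.0568), without replicates 2 and 4 (-0.0338) and without replicate 6 (-0.0156), and Rrm1 without the filter (-0.0463). Leaving out 1 library, Fen1 ran from -0.0349 to 0.0832, Rrm1 from -0.0465 to 0.0746, Gins3 from -0.00873 to 0.0901 and Mcm10 from -0.0909 to 0.0239. With upper-quartile factors 23 members rose and 11 fell. Calls of Rfc5, Rpa2 and Tk1 were lost without the filter. Cdc45 passed with upper-quartile factors, DESeq2's test, the block and without BCR::ABL1+ replicate 2. At these depths the counting error on the log2 scale, 0.0753 for Fen1 and 0.0106 for Mcm6 in BCR::ABL1- cells, came to more than 0.5 of the SD between libraries for 12 members in BCR::ABL1- and 0 in BCR::ABL1+ cells.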
